A study of Mus musculus with 2 samples.

Results

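The 3 mouse Gadd45 genes, Gadd45a, Gadd45b and Gadd45g, and Gadd45gip1, whose product binds the GADD45 proteins, were followed in RNA-seq read counts from mouse embryonic stem cells. All 4 genes, taken by symbol out of 55414 gene identifiers, passed the level at which a gene is called measured here, a mean of at least 1 CPM (read counts scaled to library size) over both libraries. Both libraries came from the R1E line with a wild-type label, grown in serum medium with leukemia inhibitory factor. One was untreated and labelled 0 h. The other was taken after 8 h with Adriamycin at 0.5 µM. This drug, doxorubicin, traps topoisomerase II on DNA and so leaves double-strand breaks. There was 1 library per condition, so nothing below is a test between conditions. The drug, the time in culture and any difference between the cultures cannot be told apart, and neither can less RNA per cell and fewer cells that hold it. Called higher or lower means a ratio of at least 2-fold.

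GADD45 proteins are small acidic proteins of the fold shared with ribosomal protein L7Ae. They have no known enzyme activity and act by binding others: the kinase MTK1 (gene Map3k4) upstream of p38 and JNK, the mitotic kinase CDK1 with cyclin B1, the replication clamp PCNA, and enzymes of active DNA demethylation. The names stand for growth arrest and DNA damage. Gadd45a is a classical p53 target with a p53 site in an intron, Gadd45b was found as a gene of myeloid differentiation and responds to NF-kB and TGF-beta, and Gadd45g was found as a cytokine response gene. The Gadd45gip1 protein, also called CRIF1, is a subunit of the large mitochondrial ribosomal particle and was named for its binding to GADD45 proteins.

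The 3 family genes are short and compact. On GRCm39, Gadd45a (ENSMUSG00000036390) lies on the minus strand of chromosome 6 from 67012080 to 67014441, Gadd45b (ENSMUSG00000015312) on the plus strand of chromosome 10 from 80765907 to 80768038, and Gadd45g (ENSMUSG00000021453) on the plus strand of chromosome 13 from 52000714 to 52002504. Gadd45gip1 (ENSMUSG00000033751) lies on the plus strand of chromosome 8 from 85558151 to 85562111. Their exons cover 1764, 1589, 1173 and 2494 bases. The coding parts hold 165, 160 and 159 codons in Gadd45a, Gadd45b and Gadd45g and 222 in Gadd45gip1, in the GENCODE M21 transcripts with the longest coding part. Between any pair of the 4 genes the longest identical stretch of transcript was 11 to 17 bases, so no stretch of 50 bases was common to any pair. The 3' untranslated region of Gadd45a (563 bases) held 2 copies of ATTTA, the core of AU-rich instability elements. Those of Gadd45b (558 bases), Gadd45g (489) and Gadd45gip1 (1056) held 0. Of 13176 measured coding genes, 65.0% held at least 1 copy and 45.1% at least 2, in regions not matched for length.

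The promoters of the 3 family genes are shown because their known regulators (Oct-1, the NF-Y complex, p53, ATF4, NF-kB) are themselves measured below. Each window runs from 250 bases before the transcript start to 50 after it, from RefSeq on GRCm38.p6, in the gene's own direction, with octamers (ATGCAAAT) and CCAAT boxes (CCAAT) on either strand in capitals. They lie at chr6:67037358-67037657 (minus strand), chr10:80929841-80930140 (plus) and chr13:51846425-51846724 (plus).
Gadd45a: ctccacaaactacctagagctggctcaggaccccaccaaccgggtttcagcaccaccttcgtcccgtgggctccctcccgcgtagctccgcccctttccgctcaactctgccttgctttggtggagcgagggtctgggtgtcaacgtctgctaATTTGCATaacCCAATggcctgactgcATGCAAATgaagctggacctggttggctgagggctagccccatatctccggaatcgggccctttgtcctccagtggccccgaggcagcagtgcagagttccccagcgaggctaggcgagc
Gadd45b: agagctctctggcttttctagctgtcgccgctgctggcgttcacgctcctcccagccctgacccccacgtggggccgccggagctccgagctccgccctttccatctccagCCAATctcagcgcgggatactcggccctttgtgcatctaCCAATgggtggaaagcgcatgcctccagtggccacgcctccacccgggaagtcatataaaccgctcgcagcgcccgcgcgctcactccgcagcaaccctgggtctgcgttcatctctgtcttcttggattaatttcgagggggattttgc
Gadd45g: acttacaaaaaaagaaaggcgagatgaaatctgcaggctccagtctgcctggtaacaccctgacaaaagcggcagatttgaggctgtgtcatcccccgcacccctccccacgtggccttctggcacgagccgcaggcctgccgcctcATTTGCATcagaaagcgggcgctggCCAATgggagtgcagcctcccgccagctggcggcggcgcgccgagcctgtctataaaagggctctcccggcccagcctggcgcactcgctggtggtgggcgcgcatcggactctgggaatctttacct

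In the Gadd45a window 2 octamers, which start 97 and 70 bases before the transcript start, stand on either side of a CCAAT box that starts 86 bases before it. Octamers bind POU factors such as Oct-1 (gene Pou2f1), and CCAAT boxes bind NF-Y. The Gadd45g window held 1 octamer (103 bases before the start) and 1 CCAAT box (78 bases), and the Gadd45b window 0 octamers and 2 CCAAT boxes (139 and 100 bases). Of all 32851 promoter windows of this length, 1.74% held an octamer, 0.107% at least 2, and 37.4% a CCAAT box. A GC box (GGGCGG), in 35.7% of windows, was found once each for Gadd45a and Gadd45b. The p53 half-site, in 8.36% of windows, matched once, in Gadd45a, 40 bases before the start. That match is also a match of the NF-kB pattern, here GGG and CC spaced by 5 bases of any kind, which is loose (50.8% of windows) and stood at 2 positions for Gadd45a and for Gadd45g. The ATF4 composite TGATGNAA (3.97% of windows) occurred once, in Gadd45g, on bases that overlap the octamer. Neither the cAMP response element TGACGTCA (1.79%) nor its core TGACG (20.8%) was present in the 3 windows. These matches describe letters only, and the intron of Gadd45a was not searched.

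Reads assigned to genes numbered 41820999 in the untreated and 38561292 in the Adriamycin library. Pou5f1, Sox2 and Nanog, the core pluripotency factors, stood at 862, 447 and 580 CPM before and 604, 334 and 183 CPM after the drug, and all 10 stem cell markers were measured. Of these 0 were higher and 5 lower, beside 17.0% and 6.95% of all measured genes. With total counts 3 were lower, beside 4.85% of all measured genes. The median log2 ratio was -0.84, and Zfp42, another stem cell marker gene, was 3.69-fold lower. Of 8 fibroblast markers for feeder cells, Col3a1, Dcn, Lum and Postn had 0 reads in both libraries, which allows up to 3 reads in each. The summed level of the list was 35.0 CPM untreated and 68.5 CPM with Adriamycin, of which the collagen gene Col1a1 made up 5.38 and 31.9 CPM. Col1a1 was 5.92-fold higher, and the other 3 measured markers stood at log2 ratios of 0.04 (Col1a2), -0.14 (Thy1) and 0.58 (Pdgfrb). The part of either marker list in the values below was not tested.

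The 3 Gadd45 genes did not move together. Gadd45g was higher in the Adriamycin library, Gadd45b was lower without reaching 2-fold, and Gadd45a was close to even. Gadd45gip1 had nearly the same ratio as Gadd45b. Over all 14871 measured genes, 17.0% were at least 2-fold higher and 6.95% at least 2-fold lower, so 1 higher and 0 lower among 4 members is near the background. At 1.5-fold, 1 member was higher and 2 were lower, where 25.7% and 18.9% of measured genes were.

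Gadd45g had 248 reads without and 632 with Adriamycin. In TMM-scaled CPM (TMM corrects library size for composition) these were 6.24 and 15.6. The log2 ratio of Adriamycin over untreated was 1.32, a 2.50-fold higher level, with a 95% counting interval of 1.11 to 1.54. Counting intervals cover counting error only. Mates of a pair seem to have been counted separately, so intervals of the members' log2 ratios were also taken on counts divided by 2. For Gadd45g this gave 1.02 to 1.63 with TMM, just above 2-fold at its lower end. With upper-quartile scaling the log2 ratio itself was lower, at 1.20, and no interval was taken. Ratios between members below also have intervals on counts divided by 2. Intervals of levels per kilobase, of shares and of the family sum were taken on undivided counts only. Of all measured genes, 87.4% had a lower ratio than Gadd45g.

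Gadd45a, the member known as a p53 target, had 1654 and 1571 reads, or 41.6 and 38.7 CPM. Its log2 ratio was -0.10 (-0.20 to -0.002), and on counts divided by 2 the interval of -0.24 to 0.04 included no difference. The sign of this ratio depends on library scaling: with total counts it was 0.043, and with upper-quartile scaling -0.22. Relative to the median of all measured genes it was -0.07 with TMM and -0.08 with total counts. Gadd45a thus lay near the middle, with 45.6% of measured genes having a lower ratio.

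Gadd45b, the NF-kB and TGF-beta responsive member, had 1017 and 654 reads, or 25.6 and 16.1 CPM. It was 1.58-fold lower in the Adriamycin library, with a log2 ratio of -0.66 (-0.81 to -0.52). Gadd45gip1 had 887 and 574 reads, or 22.3 and 14.2 CPM, and was 1.57-fold lower with a log2 ratio of -0.66 (-0.81 to -0.50). With counts divided by 2 the intervals were -0.87 to -0.46 for Gadd45b and -0.88 to -0.44 for Gadd45gip1. Both are shifts that many genes showed: 15.7% and 16.1% of measured genes had a lower ratio.

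**Figure D1:**
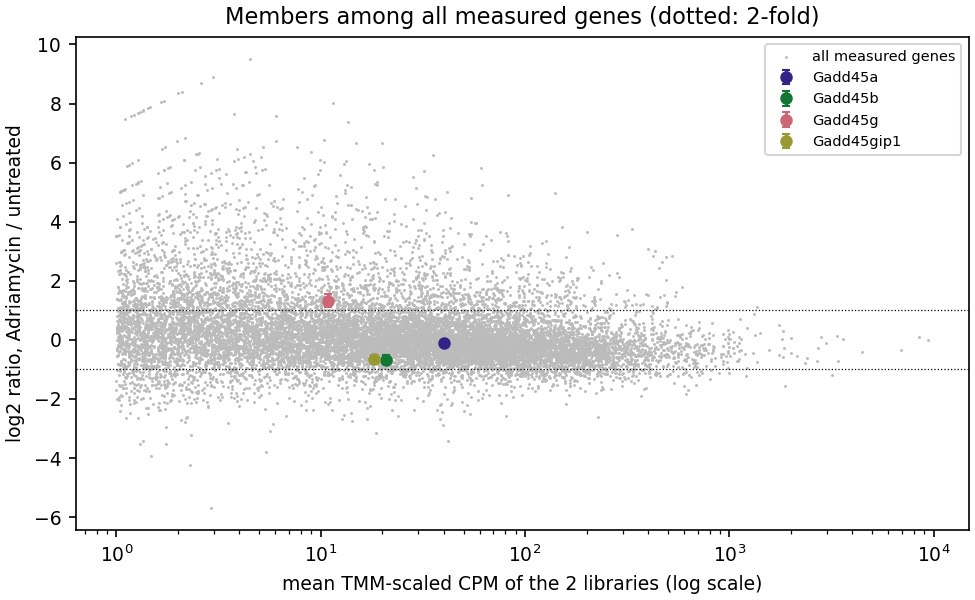
Log2 ratio of Adriamycin over untreated (y axis) against the mean TMM-scaled CPM of both libraries on a log scale (x axis) for all 14871 measured genes (grey) and the 4 members (coloured, bars are 95% counting intervals). Gadd45g lies above the dotted 2-fold line at 1.32, Gadd45a near 0, and Gadd45b and Gadd45gip1 lie side by side at -0.66.

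Ratios between members within 1 library do not depend on library scaling. Per read of Gadd45b there were 0.244 reads of Gadd45g without the drug and 0.966 with it, a 3.96-fold shift (exact 95% counting interval 3.31 to 4.75). Gadd45g against Gadd45a shifted 2.68-fold (2.28 to 3.17), from 0.150 to 0.402 reads. Gadd45a against Gadd45b shifted 1.48-fold (1.31 to 1.67). Gadd45gip1 against Gadd45b stood at 0.872 and 0.878 reads, a ratio of 1.01, whose interval on counts divided by 2 (0.817 to 1.24) included no shift. With counts divided by 2 the first 3 intervals still left out 1, at 3.06 to 5.13, 2.12 to 3.41 and 1.24 to 1.75.

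Levels can be compared between genes only per length, here in CPM per kilobase of exon. In the untreated library the order was Gadd45a at 23.6 (22.5 to 24.7), Gadd45b at 16.1 (15.1 to 17.1), Gadd45gip1 at 8.94 (8.36 to 9.55) and Gadd45g at 5.32 (4.67 to 6.02). No neighbours in that order had overlapping counting intervals. In the Adriamycin library Gadd45a stayed first at 22.0 (20.9 to 23.1), Gadd45g came next at 13.3 (12.3 to 14.4), then Gadd45b at 10.2 (9.39 to 11.0), and Gadd45gip1 was last at 5.68 (5.22 to 6.16). Gadd45b and Gadd45g had thus changed places per length, whereas their read counts in the Adriamycin library, 654 and 632, were close. This change of places depends on the length used, here all annotated exons. The transcripts with the longest coding part differ less, at 1284 bases for Gadd45b and 1071 for Gadd45g, and were not used for levels. The intervals rest on undivided counts and are too narrow if mates were counted separately. Among all measured genes Gadd45a had a higher level per kilobase than 82.5% in the untreated and 82.8% in the Adriamycin library. Gadd45g went from above 50.2% to above 71.6% of genes, and Gadd45b from above 75.2% to above 65.2%.

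**Figure D2:**
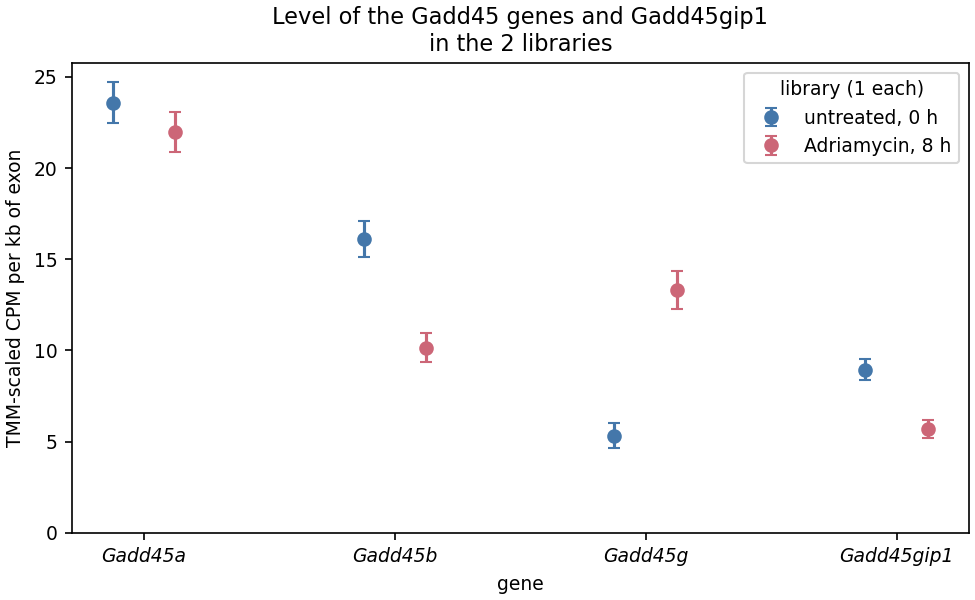
TMM-scaled CPM per kilobase of exon (y axis) of the 4 genes (x axis) in the untreated library (blue) and the Adriamycin library (red), with 95% Poisson counting intervals as bars. Gadd45a is the highest in both, and Gadd45g goes from 5.32 to 13.3 while Gadd45b goes from 16.1 to 10.2.

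With TMM scaling the summed level of the 3 Gadd45 genes was almost even, at 45.0 CPM per kilobase untreated and 45.4 with Adriamycin. The log2 ratio of this sum was 0.01. Other library scalings, which moved the ratio of Gadd45a, were not applied to the sum. On the summed reads, 2919 and 2857, the log2 ratio was -0.06 (-0.13 to 0.02). What differed was the make-up. Gadd45g supplied 11.8% of the sum per kilobase before and 29.3% after the drug. Gadd45b supplied 35.8% and 22.4%, and Gadd45a 52.4% and 48.4%. As a share of reads, with exact binomial intervals, Gadd45g went from 8.50% (7.51 to 9.57) to 22.1% (20.6 to 23.7) and Gadd45b from 34.8% (33.1 to 36.6) to 22.9% (21.4 to 24.5).

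**Figure D3:**
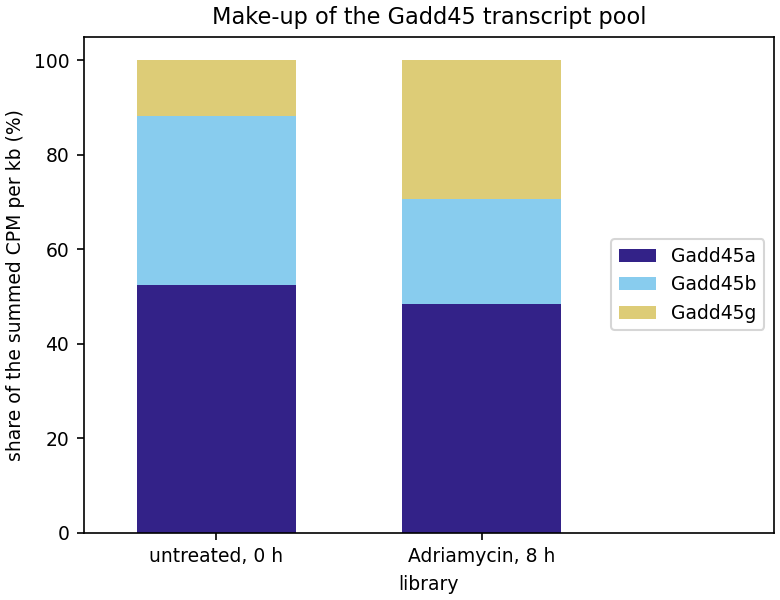
Share of each Gadd45 gene in the summed CPM per kilobase of the 3 genes (y axis, percent) in the untreated and the Adriamycin library (x axis). The Gadd45g part is 11.8% in the first bar and 29.3% in the second, and the Gadd45b part 35.8% and 22.4%.

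Overlapping genes touch the values of Gadd45a and Gadd45gip1. The counting used no strand, and its command had no option to count reads that overlap several genes. Of the Gadd45gip1 exons, 1288 bases (51.6%) are shared with other annotated genes. Divided by the unshared length alone, Gadd45gip1 stood at 18.5 (17.3 to 19.8) and 11.7 (10.8 to 12.7) CPM per kilobase. These values were above the 16.1 and 10.2 of Gadd45b. The intervals of both genes overlapped with Adriamycin and lay barely apart in the untreated library (17.3 against 17.1). They rest on undivided counts and are too narrow if mates were counted separately. The place of Gadd45gip1 in the order of levels is therefore uncertain. Gadd45a shares 337 bases (19.1%) with E230016M11Rik, which had 14 and 6 reads. Exons of Gadd45b and Gadd45g overlapped no other gene.

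The nearest measured neighbours did not share one pattern with the members. Beside Gadd45g lie Sema4d, a semaphorin gene 52930 bases away at a log2 ratio of 0.91, and 4921525O09Rik at -0.23 on 53 and 46 reads. Gadd45b lies between the lamin gene Lmnb2 (-0.55) and Gng7, a G protein gamma subunit gene (0.80). Gadd45a has Gng12, another G protein gamma subunit gene, at 0.002 and Gm8566 at -0.02. Gadd45gip1 has Nfix, a nuclear factor I gene, at 1.32 and Calr, which encodes the chaperone calreticulin, at -0.52.

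The genes nearest to each member in log2 CPM over the 2 libraries, a likeness that any gene of similar level and ratio meets, were Pik3r3, Rasd1 and P3h3 for Gadd45g (distances of 0.018 to 0.027), Arfip2, Smtn and Aup1 for Gadd45a (0.016 to 0.019), Mkks, Wdr89 and Itpka for Gadd45b (0.020 to 0.048), and Gla, Dyrk2 and Rab28 for Gadd45gip1 (0.018 to 0.043).

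Transcription factors known to act on Gadd45 genes differed in both directions. Of 23 measured, 6 were at least 2-fold higher (26.1%) and 2 lower (8.70%), beside 17.0% and 6.95% of all measured genes. The counts of each list below stand against the same background shares. The median log2 ratio was -0.36, beside -0.03 over all measured genes. With upper-quartile scaling 5 were higher and 4 lower. The p53 relative Trp73 was 31.7-fold higher (342 and 11074 reads), Jun 3.62-fold (269 and 995) and Egr1 2.76-fold (1122 and 3154), both genes of the early response to stimuli. Atf4, the effector of the integrated stress response, was 2.86-fold lower (8109 and 2895 reads), and Foxo4, a forkhead factor, 2.78-fold lower (4388 and 1609). The related genes Foxo3 and Foxo1 did not go the same way, with log2 ratios of 1.03 and 0.05. Trp53 itself had a log2 ratio of -0.57. For the boxes printed above, the Oct-1 gene Pou2f1 stood at -0.89, the NF-Y genes Nfya, Nfyb and Nfyc at -0.42, 0.48 and -0.36, and the NF-kB genes Nfkb1 and Rela at 0.32 and 0.25. Foxo3, Foxo1, Trp53 and these 6 were named after their values were seen.

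Many other direct p53 target genes differed far more than Gadd45a. Of 29 measured, 19 were higher, 0 were lower and 10 were neither, with a median log2 ratio of 1.63. The kinase gene Plk2 was 12.4-fold higher (1193 and 15134 reads), the apoptosis effector gene Perp 8.96-fold (841 and 7689) and the death receptor gene Fas had 11 and 793 reads (log2 ratio 6.08). At -0.10, Gadd45a lay below 28 of the 29. The other was Tigar, a regulator of glycolysis, at -0.53, named after its value was seen.

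Immediate early genes, which respond to growth factors and stress as Gadd45b and Gadd45g do, numbered 11 measured, of which 6 were higher and 1 was lower. Their median was 1.17. Dusp2, a MAP kinase phosphatase gene, was 15.1-fold higher (44 and 685 reads) and Fos 6.02-fold (206 and 1267). Fosl1 was 51.9-fold higher on 6 and 343 reads, with 57.2% of its exon length shared with Ccdc85b. Ier3 was 4.04-fold lower (1374 and 346 reads). Among 12 ATF4 target genes, 4 were higher (33.3%) and 3 lower (25%), and the median of -0.11 became 0.03 with total counts. Cebpb, whose exons overlap Tmem189, was 7.26-fold, Sesn2 2.92-fold and Ddit4 2.90-fold higher. Sesn2 is also among the p53 target genes counted above. The glutathione-degrading enzyme gene Chac1 was 3.19-fold, the cystine transporter gene Slc7a11 2.27-fold and the asparagine synthetase gene Asns 2.22-fold lower.

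Downstream of the GADD45 proteins, the cascade from MTK1 to p38 and JNK had 13 measured genes, 1 of them higher and 1 lower (2 lower with upper-quartile scaling). The median was 0.20. Map3k4, the gene of the GADD45-bound kinase MTK1, had 4140 and 5462 reads and a log2 ratio of 0.37. It was named, like the others given here by log2 ratio, after values were seen: the MTK1 substrates Map2k3 (0.20) and Map2k6 (-0.46), the GADD45B-bound JNK kinase Map2k7 (0.12) and the main p38 gene Mapk14 (-0.12). Mapkapk3, a kinase activated by p38, was 2.73-fold higher (3154 and 8795 reads), and Mapk11, p38 beta, 3.08-fold lower (618 and 204). Mapk10, a JNK gene, fell under the level for measured genes, with 0 reads untreated and 57 with Adriamycin.

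Of 6 cell cycle and repair proteins bound by GADD45 proteins, 1 gene was higher and 2 were lower, with a median of -0.85. Cdkn1a, the CDK inhibitor p21, also counted among the p53 target genes, was 3.10-fold higher (2289 and 7240 reads). Cdk1 was 2.13-fold lower (10659 and 5096 reads) and the mitotic kinase gene Aurka 2.43-fold lower (7499 and 3140). With total counts 1 gene, in place of 2, was lower. Ccnb1, the cyclin of CDK1, stood at -0.86, the replication clamp gene Pcna at -0.84 and the nucleolar protein gene Npm1 at -0.51.

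Partners in active DNA demethylation had 11 measured genes, 2 of them higher (18.2%) and 1 lower (9.09%). These shares are near the 17.0% and 6.95% of all measured genes. Their median of 0.08 was -0.04 with upper-quartile factors. Ercc5, the excision nuclease XPG that binds GADD45A and is also a p53 target, was 5.60-fold higher (1378 and 7872 reads). Apobec1, a cytidine deaminase gene, was 2.11-fold higher (682 and 1469 reads), which was under 2-fold with upper-quartile factors. Tet2, an oxidase of methylated cytosine, was 3.18-fold lower (15908 and 5104 reads).

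The large subunit of the mitochondrial ribosome, to which the Gadd45gip1 protein belongs, had 50 other measured genes, 1 of them higher and 0 lower. The median was -0.30. Log2 ratios below 0 were found for 39 of the 50 (31 with total counts), beside 51.6% of all measured genes (43.4% with total counts). At -0.66 Gadd45gip1 was among the lower ones, with 6 genes below it. The higher gene was Mrpl16, 2.99-fold higher with 909 and 2770 reads. Of 6 genes for other partners of the Gadd45gip1 protein, 0 reached 2-fold. The orphan receptor gene Nr4a1 stood at 0.42, the antioxidant factor Nfe2l2 at 0.13, the membrane insertase gene Oxa1l at -0.06, the LIF effector Stat3 at -0.39, the ETS factor Elf3 at -0.60 and the kinase gene Cdk2 at -0.82.

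Genes of the L7Ae fold, distant relatives of the Gadd45 genes with other functions, all stayed within 2-fold (8 genes, median -0.38). They ranged from Snu13, a splicing and small nucleolar RNA protein, at -0.66 to the ribosomal protein gene Rpl7a at -0.06. Between these lay Rps12 (-0.64), Rpp38 (-0.51), Rpl30 (-0.50), Nhp2 (-0.26), Secisbp2l (-0.14) and Secisbp2 (-0.09). Ribosomal protein genes have many pseudogene copies, so their counts are uncertain. Gadd45g, at 1.32, was above every one of the 8.

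**Figure D4:**
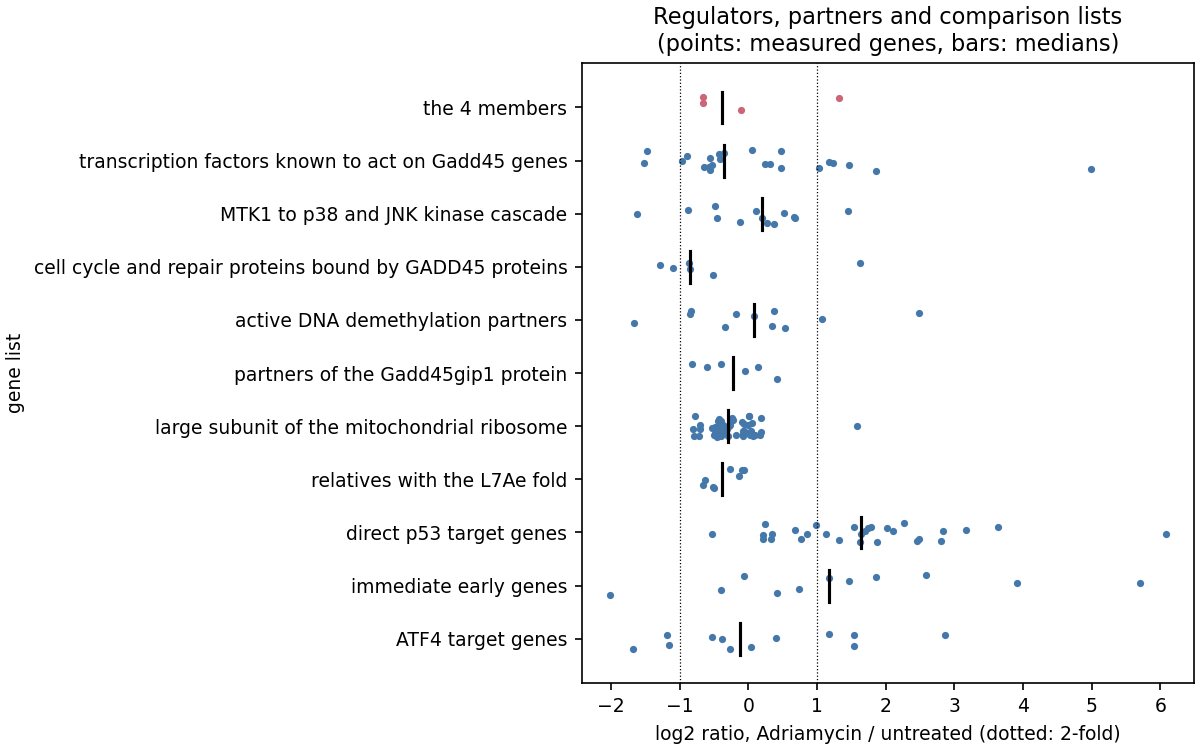
Log2 ratio of Adriamycin over untreated (x axis) for the 4 members (red) and for the measured genes of 10 lists of regulators, partners and comparison genes (blue, y axis), with medians as black bars and 2-fold as dotted lines. The p53 targets have a median of 1.63 and the immediate early genes 1.17, while the other lists have medians between -0.85 and 0.20.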

How the data were processed

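The authors deposited raw counts, 1 table for each of the 2 libraries. Reads in pairs were counted with featureCounts 2.0.3 on exons of GRCm39 annotation release 105, without strand, per the file headers. HISAT2 2.0.4, Trim Galore 0.3.4, other builds (mm9, mm10) and another featureCounts version (1.6.0) stand in the submitters' processing notes, and the headers were followed. All gene positions are those of the tables, and promoters are on GRCm38.p6.

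Symbols were matched for 52081 of 55414 identifiers. CPM and log2 ratios were computed from the deposited counts with TMM factors of 0.951 and 1.05 (edgeR 4.0.16, R 4.3.3) and a pseudocount of 0.5 read, in Python 3.11.15 with scipy 1.17.1. The computation was tested on simulated independent Poisson counts. These hold no paired mates, so they cannot show whether the intervals are wide enough for the deposited counts. More genes had 2 reads than 1 (2067 and 1629 untreated), as when mates are counted separately. Intervals are exact conditional binomial or Poisson 95% intervals, and cover counting error only. The exonic length in the deposited tables was used per kilobase.

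The members and the 12 gene lists were chosen with earlier results of these data known. Named genes are the members, Pou5f1, Sox2 and Nanog, the members' neighbours and nearest genes in level, all genes of lists with up to 8 measured, and up to 3 higher and 3 lower genes of longer lists. Some items that this rule names are not reported here. Alternatives were other library scalings, pseudocounts, filters, folds and counts divided by 2.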

Additional observations from a re-analysis of the deposited data

How the results depend on the processing

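The calls of the members held under total counts, upper-quartile factors, DESeq2 size factors and a pseudocount of 2 reads: Gadd45g kept a log2 ratio of 1.20 to 1.46 over the 3 other scalings, and the other members stayed within 2-fold. Gadd45a moved to 0.043 (total counts) and -0.22 (upper-quartile factors), and Gadd45b to -0.52 with total counts. The median of all measured genes moved with them, from -0.03 to 0.12 (total counts) or -0.15 (upper quartile). Relative to it Gadd45g was at 1.35 under each of these scalings. Higher genes were 71.0% of all calls with TMM, 80.2% with total counts and 61.6% with the upper quartile. At 1.5-fold, 2 members were lower and 1 higher, with 2805 genes (18.9%) lower and 3815 (25.7%) higher. In place of 2531 higher and 1034 lower genes, 8514 and 4292 were found with no filter beyond 1 read, and 1417 higher with a mean of at least 5 CPM.

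Shares of the 3-gene sum depend on the length used. On reads, Gadd45a was 56.7% untreated and 55.0% with Adriamycin, and Gadd45g 8.50% and 22.1%. Leaving shared exon bases out of the length, chosen after seeing the data, gave 57.7% and 53.7% for Gadd45a, 31.8% and 20.1% for Gadd45b, and 10.5% and 26.3% for Gadd45g. No paired analysis was possible because each condition has 1 library, and for the same reason no library could be left out.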
